A study of Mus musculus with 22 samples.

Results

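The genes examined here encode the enzymes of oxidative phosphorylation, the mitochondrial process that makes ATP from the electrons of food. They were chosen by name from the 55141 gene rows of the deposited tables. Symbols of the Nduf, Sdh, Uqcr, Uqcc, Cox4 to Cox8 and Atp5 families and the mitochondrially encoded mt-Nd, mt-Co, mt-Cytb and mt-Atp genes were taken, and 126 symbols matched. Of these, 14 carried the pseudogene suffix and were dropped. Of the 112 left, 106 held at least 10 counts in 2 or more libraries and are the members described below. The 6 that did not pass were Cox6a2, Cox7b2, Cox8b, Cox8c, Ndufa11b and Ndufb4c, whose largest count in any library ranged from 0 (Cox8b) to 8 (Ndufa11b). The lowest member that passed was mt-Nd4l, with at least 10 counts in 3 libraries and a largest count of 14.

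The members divide by complex and by genome. Nuclear DNA encodes 94 of them, comprising 83 subunits and 11 assembly factors. The nuclear subunits are 37 of complex I (NADH dehydrogenase), 4 of complex II (succinate dehydrogenase), 8 of complex III (the cytochrome bc1 complex), 17 of complex IV (cytochrome c oxidase) and 17 of complex V (ATP synthase). Ndufs6b (complex I) and Cox6c2 (complex IV) are counted among them though annotated as processed pseudogenes, because their symbols lack the suffix. The mitochondrial chromosome encodes 12, of which 7 belong to complex I, 1 to complex III, 3 to complex IV and 1 to complex V. The mitochondrially encoded subunit a of ATP synthase is not analysed here.

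Complexes I and II pass electrons through ubiquinone to complex III, which hands them by way of cytochrome c to complex IV, where oxygen is reduced. Complexes I, III and IV pump protons as they do so, and complex V uses the returning protons to make ATP. Apart from complex II, the complexes are built from subunits of both genomes, and the nuclear ones are made in the cytoplasm and imported. The balance between glycolysis and respiration is known to change as cells leave pluripotency.

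The libraries were poly(A) RNA from mouse cultures, 22 in 10 groups, wild type (wt) or Hox-/- (said in the series title to lack all Hox function). Both genotypes were kept as mouse embryonic stem (mES) cells in serum medium with LIF, 3 µM CHIR99021 (a GSK-3 inhibitor) and 1 µM PD0325901 (a MEK1/2 inhibitor), with 2 libraries per genotype. Both were also differentiated in plates towards endoderm with 100 ng/ml Activin A and 3 µM CHIR99021, collected at 120 h, with 3 libraries per genotype. Gastruloids, clumps of stem cells that form some embryonic tissues, were made with Activin A (ActA) from both genotypes, and with the label Chiron from wt alone. Collection was at 96 h or 120 h, each group has 2 libraries, and the labels give no gastruloid doses. The labels call the endoderm and gastruloid material mixed cells and do not state the number of clones of each genotype, so effects of genotype and of cell line cannot be told apart. Nothing says that replicates came from separate cultures, so p-values measure only the spread between these libraries, which may be technical.

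Total counts ran from 9.11 to 28.8 M per library. The 120 h gastruloid libraries were all shallower than the 96 h ones, so time and depth cannot be told apart. The summed level of the 39 Hox genes, a check of the labels, was 33.06 ± 3.77 CPM (counts scaled to a common library total, SD, n = 2) in wt and 0.896 ± 0.634 in Hox-/- mES cells, and 858.6 ± 26.3 against 25.8 ± 3.1 (n = 3) in endoderm cultures. In ActA gastruloids it was 642.6 ± 25.2 against 103.1 ± 1.02 at 96 h and 1179 ± 16.5 against 66.6 ± 4.03 at 120 h (n = 2). The spread between replicates exceeded counting error throughout: chi-square divided by its degrees of freedom was 1.4 (ActA 120h wt) to 11.3 (Chiron 96h wt). Cultures are mixtures, so fewer cells of a type and less RNA per cell cannot be told apart in any value below.

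The mitochondrially encoded members fell into 2 kinds by how they could be counted. A set of 6 was counted deeply in every library: mt-Nd1, mt-Nd2, mt-Nd4, mt-Nd5, mt-Cytb and mt-Co1. The others were thin. mt-Co2, the copper-binding subunit that receives electrons from cytochrome c, held 3 to 49 counts in each mES and endoderm library, 147 to 213 in ActA 96h libraries and 13 to 31 in ActA 120h libraries. mt-Co1, the catalytic subunit of the same enzyme, held 18680 to 104566. Copies of part of the mitochondrial chromosome lie in the nuclear genome on chromosome 1. Of the 50-base windows of mt-Co2, 100% recur in another annotated gene, against 51.1% of those of mt-Co1 and 0% of those of mt-Nd1 and mt-Cytb. The pseudogene Gm28661 matched mt-Co2 in all 681 of the aligned bases, and Gm29216 matched mt-Co1 in 486 of 492. The sequences below show the first 100 bases of mt-Co2 with its copy, and the 100 bases of mt-Co1 that hold its differences from the copy (capitals mark differing bases). They come from the GRCm38 reference, at chrM:7013-7112 (plus strand), chr1:24615466-24615565 (minus), chrM:6381-6480 (plus) and chr1:24616098-24616197 (minus).
mt-Co2: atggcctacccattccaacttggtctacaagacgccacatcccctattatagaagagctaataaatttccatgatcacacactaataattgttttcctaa
Gm28661: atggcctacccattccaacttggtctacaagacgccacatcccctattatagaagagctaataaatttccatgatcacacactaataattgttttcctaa
mt-Co1: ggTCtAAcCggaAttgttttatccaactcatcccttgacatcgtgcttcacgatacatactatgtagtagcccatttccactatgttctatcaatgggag
Gm29216: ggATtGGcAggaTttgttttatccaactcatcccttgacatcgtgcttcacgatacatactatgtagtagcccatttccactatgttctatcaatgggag
A read inside the first pair cannot be placed by its sequence. How the authors treated reads with several matches is not given in the sources used here, and the part this plays was not tested. mt-Co3 (99.9% of windows shared), mt-Nd4l (98.8%) and mt-Nd3 (98.0%) were likewise thin, and mt-Nd4 was well counted with 62.2% of windows shared. mt-Atp8 was thin with 0% shared with annotated genes, but sequence outside annotated genes was not searched. It lies at chrM:7766-7969, between mt-Co2 and mt-Co3, which both have copies on chromosome 1, so a copy of it there was not excluded. mt-Nd6, encoded on the other strand, held only 36 to 643 counts. Values of mt-Co2, mt-Co3, mt-Nd3, mt-Nd4l, mt-Atp8 and mt-Nd6 are therefore uncertain, and mitochondrial levels are described mainly from the other 6. Because the libraries were poly(A)-selected, levels of mitochondrial RNA also depend on its short poly(A) tails. Among nuclear members, more than 50% of windows were shared for 3: Atp5l (84.8%), Cox6c2 (52.7%) and Atp5o (50.3%).

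Levels of different genes were compared by FPKM, fragments scaled by gene length and library depth as the authors deposited them. In wt mES cells the highest members were mt-Co1 (2754 FPKM, mean of 2), mt-Nd1 (1899) and mt-Cytb (1474). The highest nuclear member was Atp5b, the catalytic beta subunit of ATP synthase, at 1213 FPKM, followed by its partner Atp5a1 at 618.1 and by Cox4i1, a regulatory subunit of complex IV, at 580.8. Subunits of one complex spanned a wide range in the same cells. In complex I, Ndufa7 stood at 275.3 FPKM and Ndufs4, an accessory subunit near the NADH-binding arm, at 55.6. In complex II the spread was narrow, from 69.5 (Sdhc) to 133.7 (Sdhd), the 2 membrane anchors of the enzyme. Assembly factors, which build the complexes but are not part of them, stood at 61.95 FPKM (Uqcc2) or lower. Ndufs1, Ndufaf3, Ndufa4l2 and Cox6c2 were listed at 0 FPKM in wt mES libraries while holding counts (Ndufs1, an iron-sulfur subunit that complex I needs, held 2445 and 2267), so these zeros were not read as absence.

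Summed over the 83 nuclear subunits, the members made up 1.30% ± 0.0022 of all counts in wt mES cells and 1.04% ± 0.004 in wt endoderm. The lowest share was 0.977% ± 0.0347 in Hox-/- endoderm and the highest 1.57% ± 0.007 in Hox-/- ActA 96h gastruloids. The 12 mitochondrially encoded members ranged from 6039 ± 259 CPM (ActA 120h wt) to 11600 ± 614 (endoderm wt). The nuclear and mitochondrial sums did not follow one order. Endoderm wt was highest of the 10 groups for mitochondrial RNA and lower for nuclear subunits than all but Hox-/- endoderm. Hox-/- endoderm libraries spread widely in mitochondrial RNA, at 10590, 13920 and 8897 CPM, so that group overlapped with most others. These sums are descriptions and carry no test.

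**Figure D1:**
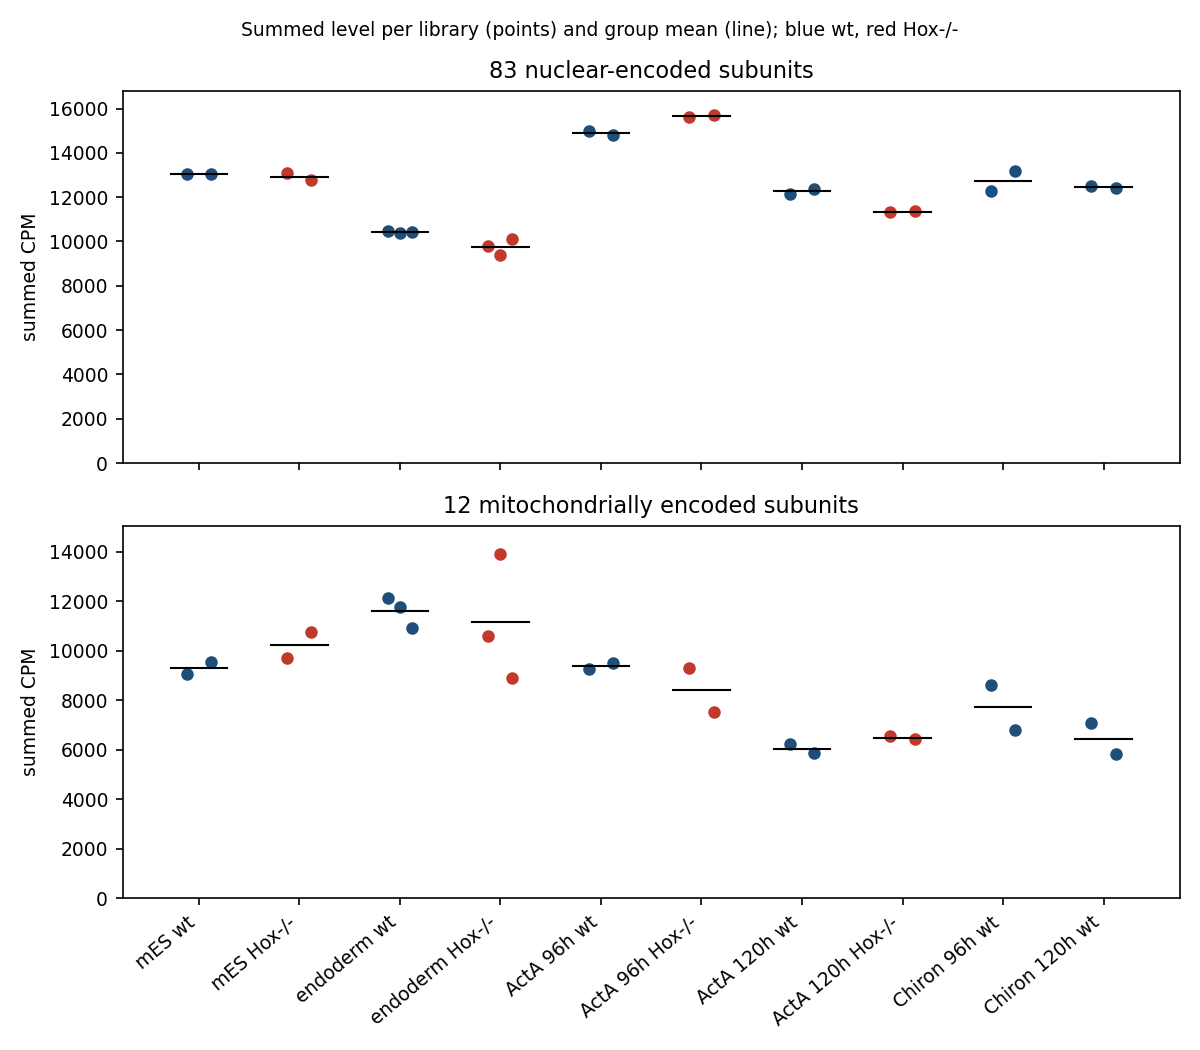
Summed CPM in each library (points) with the group mean (line), for the 83 nuclear subunits (top) and the 12 mitochondrially encoded members (bottom), wt in blue and Hox-/- in red. The 3 endoderm wt libraries sit at 10380 to 10460 CPM for nuclear subunits, below mES wt at 13030 and 13060, and at 10920 to 12110 for mitochondrial RNA, above mES wt at 9070 and 9558.

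The nuclear sums of the 5 complexes differed among themselves in how they moved across groups. Complex V was 6243 ± 9.7 CPM in wt mES cells and 6326 ± 43.3 in ActA 96h wt gastruloids, and stood lower in endoderm wt (4474 ± 41.5), ActA 120h wt (4768 ± 65.3) and Chiron 120h wt (5067 ± 2.37). Complex IV was 2190 ± 20.6 in wt mES cells and highest in Hox-/- ActA 96h gastruloids (3311 ± 17.8). It was lowest in Hox-/- endoderm, at 1680 ± 65.8. Complex I was 2683 ± 1.28 in wt mES cells and stayed above that in all wt gastruloid groups, from 2856 ± 146 (Chiron 96h) to 3363 ± 18.1 (ActA 96h). Complex II varied least among endoderm and mES groups, from 620.8 ± 14.5 to 664.3 ± 3.64.

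**Figure D2:**
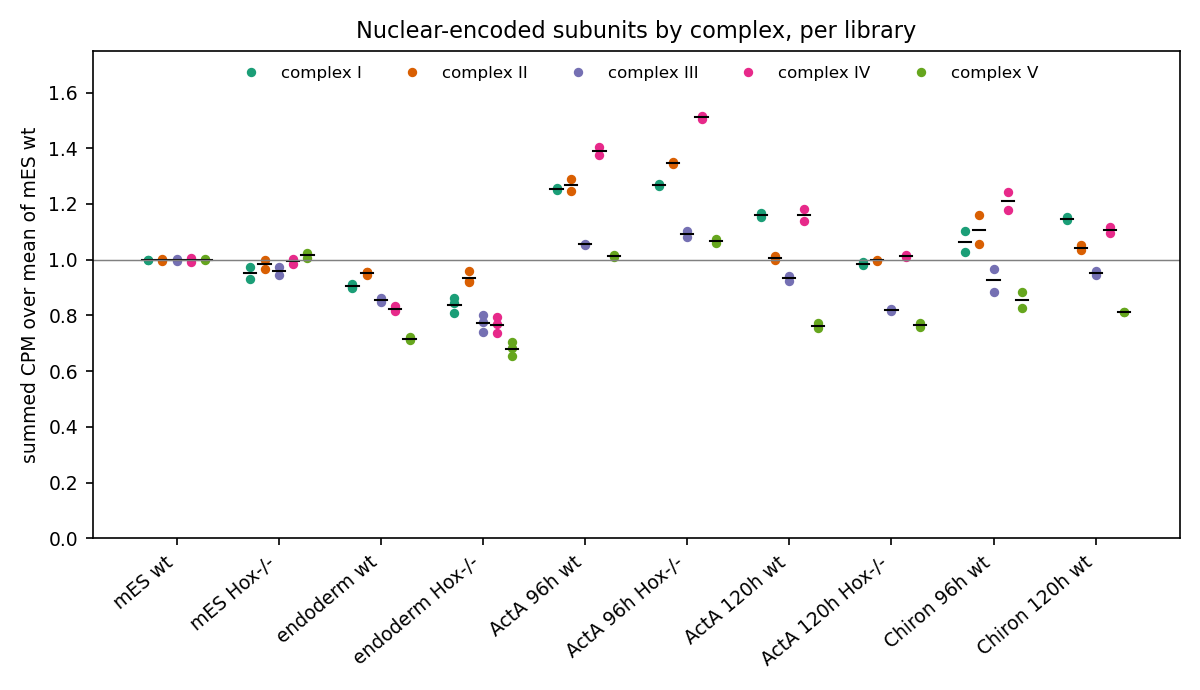
Summed CPM of the nuclear subunits of each complex per library (points, mean as line), divided by the mean of the 2 mES wt libraries. Complex V has the lowest group mean of the 5 in every gastruloid group and in endoderm, and in endoderm all 5 complexes lie below the mES wt level.

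Endoderm cultures were compared with mES cells within each genotype. Among 102 members tested in wt, 20 were higher and 59 lower in endoderm (edgeR, Benjamini-Hochberg adjusted p under 0.05, as for every call below), and 41.6% and 38.3% of all genes tested were. The median log2 change was -0.28 over members and 0.07 over all genes. In Hox-/- cultures 10 members were higher and 57 lower, beside 42.7% and 37.9% of all genes, with a median of -0.28 against 0.10. Scaling by total counts alone turned these into 18 and 52. The wt and Hox-/- comparisons share no libraries. Of the members lower in wt, 54 were also lower in Hox-/-, which is 91.5% of the wt list and 94.7% of the Hox-/- list. No overlap over all genes stands beside this one or the overlaps of lists below. None of them is therefore read as particular to the members. All 4 complex II subunits, 21 of 36 nuclear subunits of complex I and 12 of 17 of complex V were called lower in wt. In complex II the changes were small. The endoderm and mES libraries overlapped for Sdha (log2 change -0.14) and Sdhc (-0.21), but not for Sdhb (-0.23) and Sdhd (-0.23). These log2 changes use TMM scaling. In CPM, scaled by total counts alone, wt endoderm and mES means were 275.3 and 280.1 for Sdha and 113.7 and 121.3 for Sdhc. They were 97.65 and 105.4 for Sdhb and 146.1 and 157.5 for Sdhd. The size of the complex II changes therefore depended on the scaling.

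Cox5a, a matrix-side subunit of complex IV (gene at chr9:57521279-57532426, mm10), was among the members that fell most. It stood at 229 and 219 CPM in wt mES libraries and at 107, 95 and 97.8 in wt endoderm, and at 232 and 233 against 106, 94 and 107 in Hox-/-. No endoderm library came near any mES library, and the log2 change was -1.28 (SE 0.0612, edgeR adjusted p = 1.04e-13) in wt and -1.27 (SE 0.0607, edgeR adjusted p = 1.03e-13) in Hox-/-. Atp5g1 (chr11:96068852-96075670), 1 of 3 genes for the proton-carrying c ring of ATP synthase, stood at 218 and 229 CPM in wt mES cells and 95.4, 92.6 and 106.1 in wt endoderm. It fell by 1.30 on the log2 scale (SE 0.0618, edgeR adjusted p = 9.36e-14). Its homologue Atp5g3, which encodes the same mature protein, was 263 and 262 CPM in wt mES cells and 252, 242 and 263 in wt endoderm, with overlapping libraries. Its log2 change was -0.17 (SE 0.0607, edgeR adjusted p = 0.0125), a call lost without mES wt replicate 1 (-0.16) or endoderm wt replicate 2 (-0.14) and under total-count scaling (-0.06). Uqcr10, a small subunit of complex III, stood at 134.5 and 131.4 CPM in mES and 66.8 to 72.7 in endoderm and fell by 1.06 (SE 0.0566, edgeR adjusted p = 7.02e-13). Ndufaf5, a methyltransferase-like factor that assembles complex I, changed by -1.05 (SE 0.109, edgeR adjusted p = 2.5e-08) from 25.2 and 24.3 CPM to 11.3 to 15.4. Of the 20 members that rose in wt, Ndufa8, an accessory subunit of complex I, stood at 40.7 and 39.6 CPM in mES cells and 51.1, 51.2 and 56.2 in endoderm. It rose by 0.28 (SE 0.0703, edgeR adjusted p = 0.00127), and by 0.50 (SE 0.0709, edgeR adjusted p = 1.93e-06) in Hox-/-.

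The well-counted mitochondrial genes moved unequally in the same cultures. mt-Co1 stood at 3913 and 4214 CPM in wt mES libraries and at 5481, 5717 and 5297 in wt endoderm, and rose by 0.32 (SE 0.108, edgeR adjusted p = 0.0112). That call was lost without mES wt replicate 1, at 0.28. mt-Nd5 rose by 0.39 (SE 0.117, edgeR adjusted p = 0.00451) and mt-Nd4 by 0.37 (SE 0.11, edgeR adjusted p = 0.0048), both in edgeR. DESeq2 called none of these 3. mt-Nd1, whose RNA lies upstream of both on the chromosome, fell by 0.27 (SE 0.108, edgeR adjusted p = 0.0287), a call lost without mES wt replicate 1 or 2 or endoderm wt replicate 2 or 3 (-0.29 to -0.21) and turned to 0.03 by length and GC offsets. In Hox-/- the mt-Co1 value was 0.15 (adjusted p = 0.203) and the 3 endoderm libraries ran from 4115 to 6432 CPM. Without endoderm Hox-/- replicate 3 that value was 0.28 and was called. The genotype by differentiation term, which compares the changes in the 2 genotypes, called 4 members higher and 10 lower, beside 11.6% and 12.5% of all genes. Leaving out a single library moved that total of 14 to 5 (mES wt replicate 1), 6 (mES wt replicate 2), 8 (mES Hox-/- replicate 2) or 9 (mES Hox-/- replicate 1, endoderm wt replicate 2 or endoderm Hox-/- replicate 1). The 5 pluripotency markers, all lower in endoderm, moved with these changes, their sum lying at 4121 to 4125 CPM in mES wt and 512.6 to 592.6 in endoderm wt. The 6 endoderm markers, all higher, summed to 28.7 to 30.9 and 482.5 to 519.6 CPM. Their part in the result was not tested, and culture and preparation cannot be told apart.

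Time in the gastruloids was compared within each treatment and genotype. In ActA wt gastruloids 15 of 105 members were higher and 75 lower at 120 h than at 96 h, beside 37.2% and 37.8% of all genes, with a median log2 change of -0.36 against 0.00. In ActA Hox-/- gastruloids 8 were higher and 91 lower, beside 34.9% and 37.6%, with a median of -0.46 against -0.01. All 17 nuclear subunits of complex V and all 8 of complex III were among the 91. In Chiron wt gastruloids 20 of 104 were higher and 40 lower, beside 28.5% and 33.2%, and the median was -0.12 against -0.04. Total-count scaling changed that split to 32 and 29. The ActA wt and Chiron wt comparisons share no libraries, and 39 members were lower in both (52.0% of the ActA list, 97.5% of the Chiron list). A set of 13 was higher in both (86.7% and 65.0%), and only Atp5o and Ndufaf6 were lower in ActA and higher in Chiron.

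Subunits of one complex did not all move in one direction. Atp5a1, the alpha subunit of the ATP synthase head, stood at 1237 and 1226 CPM in ActA 96h wt libraries and at 721.5 and 704.2 at 120 h. Its log2 change was -0.86 (SE 0.0378, edgeR adjusted p = 7.5e-26), and in Chiron gastruloids -0.60 (SE 0.0494, edgeR adjusted p = 2.85e-10). Atp5e (chr2:174461072-174464105), the small epsilon subunit at the foot of the same head, stood at 106 and 110.2 CPM at 96 h and at 163 and 174 at 120 h. It rose by 0.56 (SE 0.0467, edgeR adjusted p = 3.23e-15) in ActA wt and by 0.91 (SE 0.0634, edgeR adjusted p = 1.63e-11) in Chiron. Thus 2 subunits of one enzyme moved apart with no overlap of libraries, in both treatments. Ndufb8 (chr19:44548572-44555440), a membrane-arm subunit of complex I, stood at 197 and 202 CPM at 96 h and 342 and 338 at 120 h in ActA wt, a rise of 0.69 (SE 0.0435, edgeR adjusted p = 1.25e-19). In Chiron it rose by 0.70 (SE 0.0547, edgeR adjusted p = 1.38e-10), from 155 and 177 CPM to 296 and 285. Ndufv2, which carries an iron-sulfur cluster in the NADH-binding arm, stood at 166 and 167 CPM at 96 h and 110.5 and 111.9 at 120 h in ActA wt, and fell by 0.66 (SE 0.0468, edgeR adjusted p = 1.37e-17). In complex II the flavoprotein Sdha (chr13:74322254-74350280) stood at 302 and 290 CPM at 96 h and 181 and 176 at 120 h, and fell by 0.81 (SE 0.042, edgeR adjusted p = 9.43e-23). Its partner Sdhb, the iron-sulfur subunit, was 101 and 104 CPM at 96 h and 124 and 119 at 120 h, and rose by 0.17 (SE 0.0481, edgeR adjusted p = 0.00184). Without ActA 120h wt replicate 1 the Sdhb value was 0.13 and the call was lost.

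**Figure D3:**
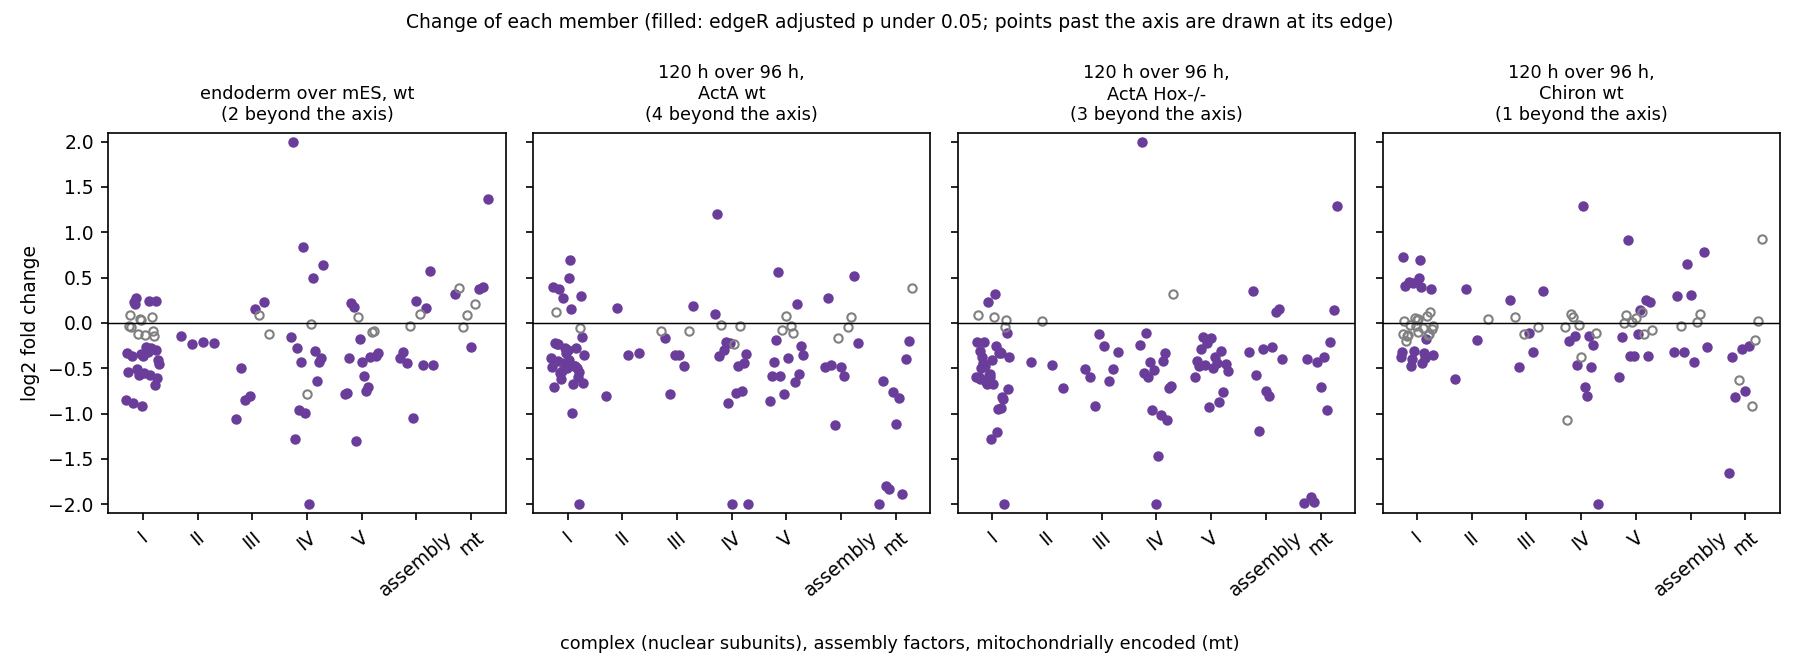
Log2 fold change of each member in 4 comparisons, by complex, assembly factors and mitochondrial genes (mt). Filled points passed edgeR at an adjusted p under 0.05, and points past the axis lie at its edge. In ActA gastruloids most points of every complex lie below 0, with 75 of 105 members called lower in wt and 91 of 105 in Hox-/-.

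The assembly factor Ndufaf4 (chr4:24898083-24905001), needed early in building complex I, changed most among the factors at this step. It stood at 95.2 and 100 CPM in ActA 96h wt libraries and 49.2 and 44.7 at 120 h, and fell by 1.13 (SE 0.0589, edgeR adjusted p = 8.72e-23). In Hox-/- both 96 h libraries were at 109.7 CPM and the 120 h ones at 47.2 and 49.8, a fall of 1.20 (SE 0.0564, edgeR adjusted p = 1.5e-24). Uqcc2, which helps make cytochrome b for complex III, went the other way, from 44.9 and 47.4 CPM to 65.8 and 73.7 in ActA wt (0.52, SE 0.0604, edgeR adjusted p = 1.29e-10). Of 11 assembly factors 2 rose and 6 fell in ActA wt (37.2% and 37.8% of all genes did), and 3 rose and 8 fell in ActA Hox-/- (34.9% and 37.6%).

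Each of the 6 well-counted mitochondrial genes fell in ActA wt gastruloids. mt-Nd1 stood at 2009 and 2080 CPM at 96 h and at 975 and 1017 at 120 h, a log2 change of -1.11 (SE 0.0563, edgeR adjusted p = 2.97e-23). The falls were 0.83 for mt-Nd2, 0.76 for mt-Cytb, 0.64 for mt-Co1, 0.40 for mt-Nd4 and 0.20 for mt-Nd5, and for none of the 6 did the 96 h and 120 h libraries overlap. In Chiron wt gastruloids mt-Nd1 fell by 0.76 (SE 0.0693, edgeR adjusted p = 1.94e-09), from 1851 and 1528 CPM to 1136 and 1017. mt-Co1 fell by 0.37 there (SE 0.0829, edgeR adjusted p = 0.000457), although its libraries overlapped and the value was -0.17 without Chiron 96h wt replicate 1 and -0.24 without Chiron 120h wt replicate 2. The Chiron calls of mt-Nd2 (-0.26) and mt-Cytb (-0.29) were lost without Chiron 96h wt replicate 1 (0.00 and -0.11) or Chiron 120h wt replicate 2 (-0.20 and -0.09). In Hox-/- ActA gastruloids mt-Nd1 fell by 0.71 (SE 0.0557, edgeR adjusted p = 5.04e-16). mt-Nd5 rose there by 0.14 (SE 0.0565, edgeR adjusted p = 0.0208), but was at -0.04 without ActA 96h Hox-/- replicate 2 and lost its call without ActA 120h Hox-/- replicate 1 (0.11). Without ActA 96h Hox-/- replicate 1 it was 0.35. The 2 ActA 96h Hox-/- libraries differed in mitochondrial RNA, at 9282 and 7531 CPM in sum, and without replicate 1 the log2 ratio of the sums over time was -0.22 in place of -0.38. Pluripotency markers (5 genes) summed to 967.8 to 987.1 CPM in ActA 96h wt and 81 to 82.6 at 120 h, with 3 of 5 lower and 1 higher. Presomitic and somitic markers (5 genes) went from 120.2 to 129.5 up to 359.1 to 367, with 3 higher and 2 lower. Their part, and that of depth, was not tested.

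The 2 gastruloid treatments were compared in wt at each time, as ActA over Chiron. At 96 h, 64 of 104 members were higher in ActA and 3 lower, beside 31.3% and 30.2% of all genes, with a median log2 difference of 0.22 against 0.00. At 120 h, 16 were higher and 22 lower, beside 20.3% and 21.6%, with a median of -0.04 against -0.01. The 120 h total of 38 was 25 without Chiron 120h wt replicate 1 and 24 without either ActA 120h wt library. The 2 times share no libraries. Of the 64 members higher at 96 h, 13 were also higher at 120 h (20.3% of the first list, 81.2% of the second) and 10 were lower. At 96 h the higher members included 24 of 36 nuclear complex I subunits and 13 of 17 nuclear complex V subunits, with none of the latter lower. Ndufs4, an accessory subunit of complex I, stood at 147 and 141 CPM in ActA and 80.4 and 84.1 in Chiron, and was higher by 0.74 (SE 0.0512, edgeR adjusted p = 9.43e-12). Atp5e stood at 106 and 110.2 against 58.6 and 67.3 CPM (0.71, SE 0.0604, edgeR adjusted p = 4.11e-10), and was still higher at 120 h (0.35, SE 0.0632, edgeR adjusted p = 9.94e-05). Uqcrc1, a core subunit of complex III, stood at 165.5 and 160.8 CPM in ActA and 203 and 195 in Chiron at 120 h, and was lower by 0.34 (edgeR log2 change -0.34, SE 0.0593, edgeR adjusted p = 6.76e-05). Marker sums differed too. At 96 h endoderm markers (5 of 6 higher, 1 lower) summed to 532 to 595.6 CPM in ActA and 157 to 157.5 in Chiron. Pluripotency markers (2 of 5 higher, 3 lower) summed to 967.8 to 987.1 and 171.9 to 224.5, and presomitic and somitic markers (5 of 5 lower) to 120.2 to 129.5 and 568 to 661.4. At 120 h endoderm markers (6 of 6 higher) summed to 538.8 to 541.7 and 57.1 to 62.1. The part of these markers was not tested.

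The effect of the Hox-/- genotype was tested in 4 settings. In ActA 96h gastruloids 48 of 105 members were higher in Hox-/- and 8 lower, beside 22.2% and 16.7% of all genes. In ActA 120h gastruloids 18 were higher and 31 lower, beside 24.9% and 25.5%. The differences were small, with a median of 0.10 at 96 h (0.04 over all genes) and -0.04 at 120 h (-0.02 over all genes). Scaling by total counts alone gave 28 higher and 13 lower at 96 h and 13 and 52 at 120 h. The extent of the imbalance therefore depended on the scaling. Under both scalings more members were higher at 96 h and more were lower at 120 h. Endoderm markers (0 of 6 higher, 5 lower) summed to 532 to 595.6 CPM in wt and 248.4 to 249.6 in Hox-/- at 96 h, and their part was not tested. The 96 h total of 56 was 34 without ActA 96h wt replicate 2 and 26 with DESeq2. Of the members higher at 96 h, 7 were also higher at 120 h (Ndufa10, Ndufa12, Sdha, Atp5b, Atp5g1, Atp5g3 and Ndufaf1) and 15 were lower. The genotype by time term, which tests that change directly, called 13 members higher and 43 lower, beside 18.7% and 20.2%.

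Sdha was higher in Hox-/- at both times. At 96 h it stood at 302 and 290 CPM in wt and 329 and 338 in Hox-/- (0.23, SE 0.0373, edgeR adjusted p = 2.33e-06). At 120 h it stood at 181 and 176 in wt and 247 and 251 in Hox-/- (0.59, SE 0.0444, edgeR adjusted p = 2.95e-16). Neither pair of groups overlapped, and the genotype by time term was 0.37 (SE 0.058, edgeR adjusted p = 9.26e-07). Ndufa10, an accessory subunit of complex I, was also higher at both times, by 0.22 at 96 h (SE 0.0446, edgeR adjusted p = 6.02e-05). At 120 h it stood at 68.9 and 73.5 CPM in wt and 89.1 and 96.1 in Hox-/- (0.49, SE 0.0583, edgeR adjusted p = 5.53e-10). Atp5e differed in sign between the times. At 96 h it was higher by 0.15 (SE 0.0447, edgeR adjusted p = 0.00665), a call lost without ActA 96h wt replicate 1 (0.12) or Hox-/- replicate 1 (0.08) and under total-count scaling (0.10). At 120 h it was 163 and 174 CPM in wt and 104 and 107 in Hox-/- (-0.57, SE 0.0512, edgeR adjusted p = 1.74e-13), and its genotype by time term was -0.71 (SE 0.068, edgeR adjusted p = 2.34e-12). Ndufa7, a complex I subunit of the matrix arm, stood at 239 and 237 CPM in wt and 163 and 154 in Hox-/- at 120 h (-0.47, SE 0.0466, edgeR adjusted p = 2.84e-12). These libraries also did not overlap. Among members higher at 96 h, the smallest p in complexes IV and V belonged to Cox8a, a small subunit (398 and 355 CPM in wt, 431 and 464 in Hox-/-), and to Atp5g3 (583 and 563 in wt, 660.3 and 715 in Hox-/-). They rose by 0.30 (SE 0.044, edgeR adjusted p = 1.87e-07) and 0.32 (SE 0.041, edgeR adjusted p = 1e-08).

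Among the mitochondrial genes, 6 were higher in Hox-/- at 120 h and none of the 11 tested was lower, beside 24.9% and 25.5% of all genes. mt-Nd1 stood at 975 and 1017 CPM in wt and 1109 and 1143 in Hox-/- (0.29, SE 0.0568, edgeR adjusted p = 2.7e-05), and mt-Co1 at 2248 and 2051 against 2356 and 2318 (0.23, SE 0.0445, edgeR adjusted p = 1.76e-05). Both calls held when each library was left out in turn, although DESeq2 did not call mt-Nd1. The calls of mt-Nd2 (0.25), mt-Nd4 (0.14) and mt-Nd5 (0.22) were lost under total-count scaling (0.14, 0.02 and 0.11), and that of mt-Nd4 also without ActA 120h wt replicate 2 (0.08). At 96 h mt-Nd2 (-0.20) and mt-Cytb (-0.22) were called lower in Hox-/-, but were at 0.00 and -0.05 without ActA 96h Hox-/- replicate 2, and mt-Nd2 was also lost without ActA 96h wt replicate 2 (-0.14). Presomitic and somitic markers (5 of 5 higher in Hox-/- at 120 h) summed to 359.1 to 367 CPM in wt and 621.7 to 630.8 in Hox-/-. Endoderm markers (0 of 6 higher, 4 lower) summed to 538.8 to 541.7 and 162.7 to 167.1. Their part in these differences was not tested.

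**Figure D4:**
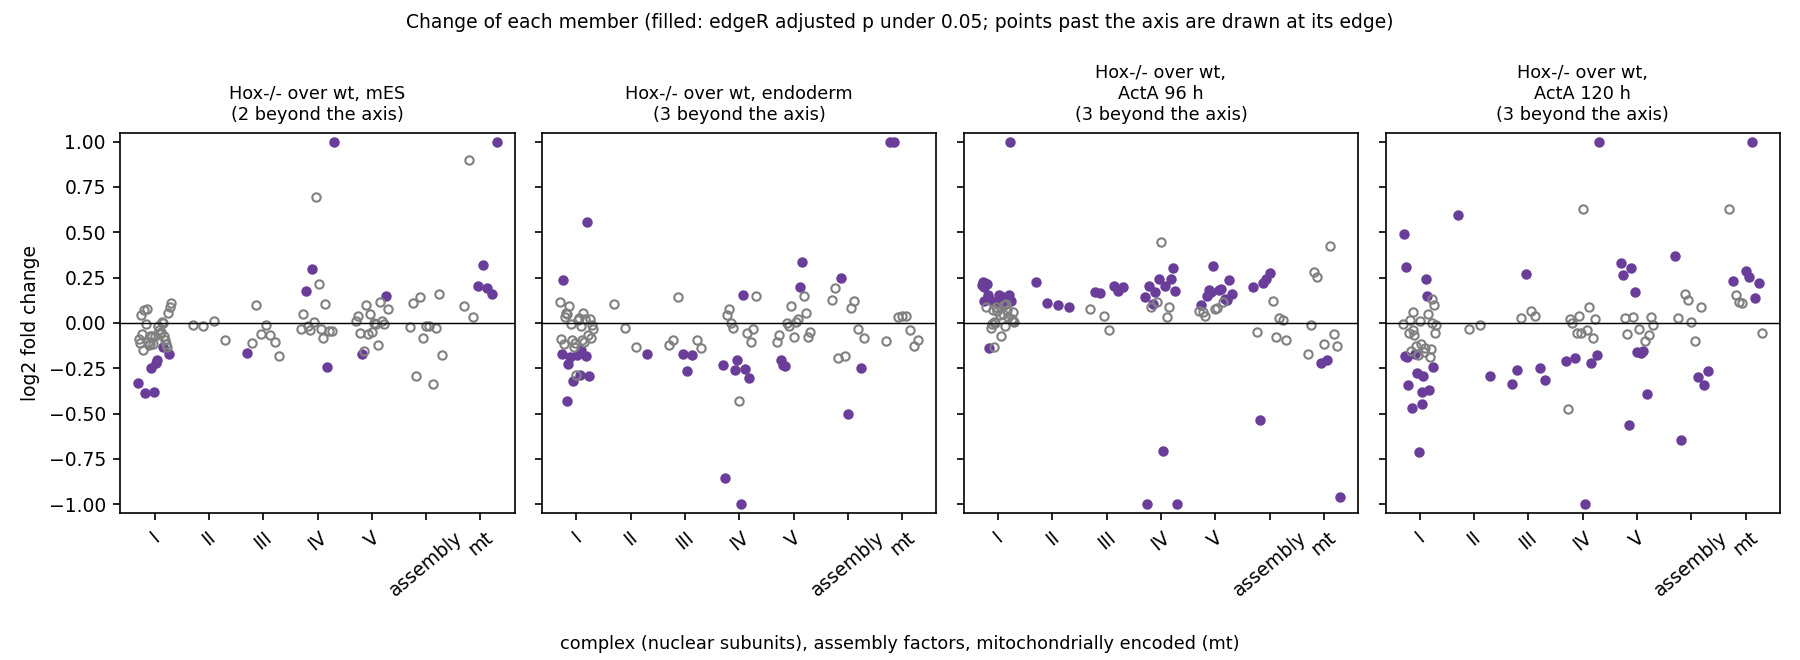
Log2 fold change of each member in Hox-/- over wt in the 4 settings, by complex, assembly factors and mitochondrial genes (mt), with filled points past an edgeR adjusted p of 0.05 and points past the axis at its edge. At ActA 96 h most filled points lie above 0 (48 higher, 8 lower), and at 120 h filled points lie on both sides (18 higher, 31 lower).

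In mES cells 9 of 100 members were higher in Hox-/- and 11 lower, beside 12.4% and 10.8% of all genes. That share lies near the background. The total of 20 was 7 without mES wt replicate 1, 11 without mES wt replicate 2, 33 without mES Hox-/- replicate 1 and 8 with DESeq2. With the mitochondrial genes left out of the library sizes and the fit it was 4 higher and 11 lower. Of 36 nuclear complex I subunits tested, 0 were higher and 8 lower. Ndufa5, a matrix-arm subunit, stood at 38.8 and 40 CPM in wt and 30.9 and 29.3 in Hox-/- (-0.39, SE 0.0799, edgeR adjusted p = 0.000399), with no overlap. Of the 8 mitochondrial genes tested 5, all of them complex I subunits, were higher and none lower. These 5 include mt-Nd6, which is among the uncertain values named above. mt-Nd2 stood at 624 and 665 CPM in wt and 753 and 857 in Hox-/- (0.32, SE 0.0456, edgeR adjusted p = 1.77e-06), and mt-Co1 had a value of 0.09 (edgeR adjusted p = 0.0733), or 0.15 and called without mES Hox-/- replicate 1.

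In endoderm cultures 8 of 102 members were higher in Hox-/- and 26 lower, beside 23.1% and 23.1% of all genes. Nuclear subunits of complex IV had 1 higher and 7 lower of 17, and those of complex I 2 higher and 10 lower of 36. Ndufa12 and Ndufs5 were the 2 higher in complex I. They share 26.2% and 31.1% of their windows with the processed pseudogenes Gm15920 and BC002163, which also held counts. The part these copies play was not tested. Of the 9 mitochondrial members tested, mt-Co2 (2.08, SE 0.378, edgeR adjusted p = 0.000458) and mt-Co3 (1.54, SE 0.36, edgeR adjusted p = 0.00293) were higher. They held 5 to 12 counts in each wt library and 21 to 58 in each Hox-/- library, and are among the uncertain values named above. Ndufa6, a complex I subunit, stood at 74.3, 82.6 and 80.2 CPM in wt and 56.1, 56.7 and 62.1 in Hox-/- (-0.43, SE 0.0618, edgeR adjusted p = 5.9e-05). Cox7c, a small subunit of complex IV, stood at 106.8, 123.7 and 110.4 CPM in wt and 91, 86 and 97.4 in Hox-/- (-0.31, SE 0.0643, edgeR adjusted p = 0.00141). Neither overlapped between genotypes. Of the 20 members called in mES cells and 34 called in endoderm, 3 were lower in both (Ndufb11, Cox7c and Atp5d), and Cox6b2 was higher in mES cells and lower in endoderm. Pluripotency markers (5 of 5 lower in Hox-/- endoderm) summed to 512.6 to 592.6 CPM in wt and 170.7 to 190.2 in Hox-/-, and endoderm markers (6 of 6 lower) to 482.5 to 519.6 and 330.4 to 366.2. Neural markers went the other way in sum, at 4.62 to 5.84 CPM in wt and 36 to 46 in Hox-/- (the 1 tested was higher), as did cardiac markers, at 61.7 to 82.8 and 112.1 to 122.5 (1 of 4 tested higher, 2 lower). Their part was not tested. No member was called with the same sign in all 4 genotype comparisons.

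Some subunits exist in alternative forms that are known from heart and skeletal muscle, lung, testis or low oxygen. The muscle forms Cox6a2 and Cox8b and the testis forms Cox7b2 and Cox8c did not reach the count minimum. The 3 skeletal muscle markers reached at most 0.466 CPM in sum in any library. The sum of the 5 cardiac markers was highest in endoderm, at 61.7 to 82.8 CPM in wt and 112.1 to 122.5 in Hox-/-. Single cardiac markers differed in direction between the genotypes there, as given above. Cox7a1 (chr7:30184144-30186078), the heart and skeletal muscle form of a small complex IV subunit, was present in mES cells, at 11 and 11.2 CPM in wt and 12.8 and 13 in Hox-/-. In endoderm it stood at 2.27, 2.97 and 2.41 CPM in wt and 1.14, 1.29 and 1.32 in Hox-/-. It fell by 2.23 in wt (SE 0.151, edgeR adjusted p = 3.12e-11) and by 3.44 in Hox-/- (SE 0.163, edgeR adjusted p = 8.49e-14), with a genotype by differentiation term of -1.22 (SE 0.242, edgeR adjusted p = 0.000962). Thus the lowest mES library lay above the highest endoderm library. In gastruloids Cox7a1 was lower in Hox-/- than wt at 96 h (-0.70, SE 0.206, edgeR adjusted p = 0.00507) and 120 h (-1.94, SE 0.358, edgeR adjusted p = 8.95e-06), where the libraries held 26 and 36 counts in wt and 10 and 8 in Hox-/-. Its widely expressed counterpart Cox7a2 was 140.8 and 148.5 CPM in wt mES cells, 150 to 163 in wt endoderm and 340.4 and 343.6 in ActA 96h wt gastruloids. Cox7a2 fell by 0.78 (SE 0.0412, edgeR adjusted p = 1.69e-22) to 205 and 215 CPM at 120 h.

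Ndufa4l2 (chr10:127514967-127517154), known as a hypoxia-induced relative of the complex IV subunit Ndufa4, varied between the gastruloid groups. It stood at 14.3 and 16 CPM in ActA 96h wt gastruloids, 5.61 and 6.09 in Hox-/- at that time, and 1.51 and 1.42 in Chiron 96h wt. At 120 h it stood at 4.43 and 3.07 CPM in ActA wt, 7.67 and 6.92 in ActA Hox-/-, and in Chiron it held only 4 and 3 counts. Hence Hox-/- was lower than wt at 96 h (-1.33, SE 0.12, edgeR adjusted p = 2.6e-13) and higher at 120 h (1.07, SE 0.207, edgeR adjusted p = 2.06e-05), and the genotype by time term was 2.40 (SE 0.238, edgeR adjusted p = 8.22e-12). ActA exceeded Chiron at 96 h by 3.31 (SE 0.162, edgeR adjusted p = 1.35e-14).

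Cox6b2, the testis form of a subunit on the cytochrome c side of complex IV, was lowest in wt mES cells and in Chiron 120h. It stood at 24.4 and 24.3 CPM in wt mES cells, 45.7, 43.7 and 51.8 in wt endoderm, 61.5 and 58.4 in ActA 96h wt and 34.4 and 33.9 in ActA 120h wt. It rose with differentiation by 0.83 (SE 0.0899, edgeR adjusted p = 4.69e-08) and was lower at 120 h by 0.88 (log2 change -0.88, SE 0.0669, edgeR adjusted p = 1.27e-16). Cox4i2, the lung and hypoxia form of Cox4i1, was thin everywhere. Its counts were 9 and 2 in wt mES cells, 21, 22 and 37 in wt endoderm, 18 and 10 in ActA 96h wt, and 3 in each ActA 96h Hox-/- library. Cox4i1 itself was 363 and 371 CPM in wt mES cells. With time its log2 change was 0.10 in ActA wt (SE 0.0388, edgeR adjusted p = 0.0154), a call lost without either 96 h wt library (0.10 each) or ActA 120h wt replicate 2 (0.08). It fell by 0.25 in ActA Hox-/- (SE 0.0393, edgeR adjusted p = 2.4e-07), with a genotype by time term of -0.35 (SE 0.0553, edgeR adjusted p = 8.71e-07). Ndufs6b is annotated as a processed pseudogene and shares 25.4% of its windows with the complex I subunit Ndufs6. Whether its counts came from Ndufs6 was not tested. Ndufs6b held 11 and 11 counts in ActA 96h wt and 22 and 15 in Hox-/-. It held 0 in all 4 ActA 120h libraries, which allow up to 3 counts each, so no fold is given.

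**Figure D5:**
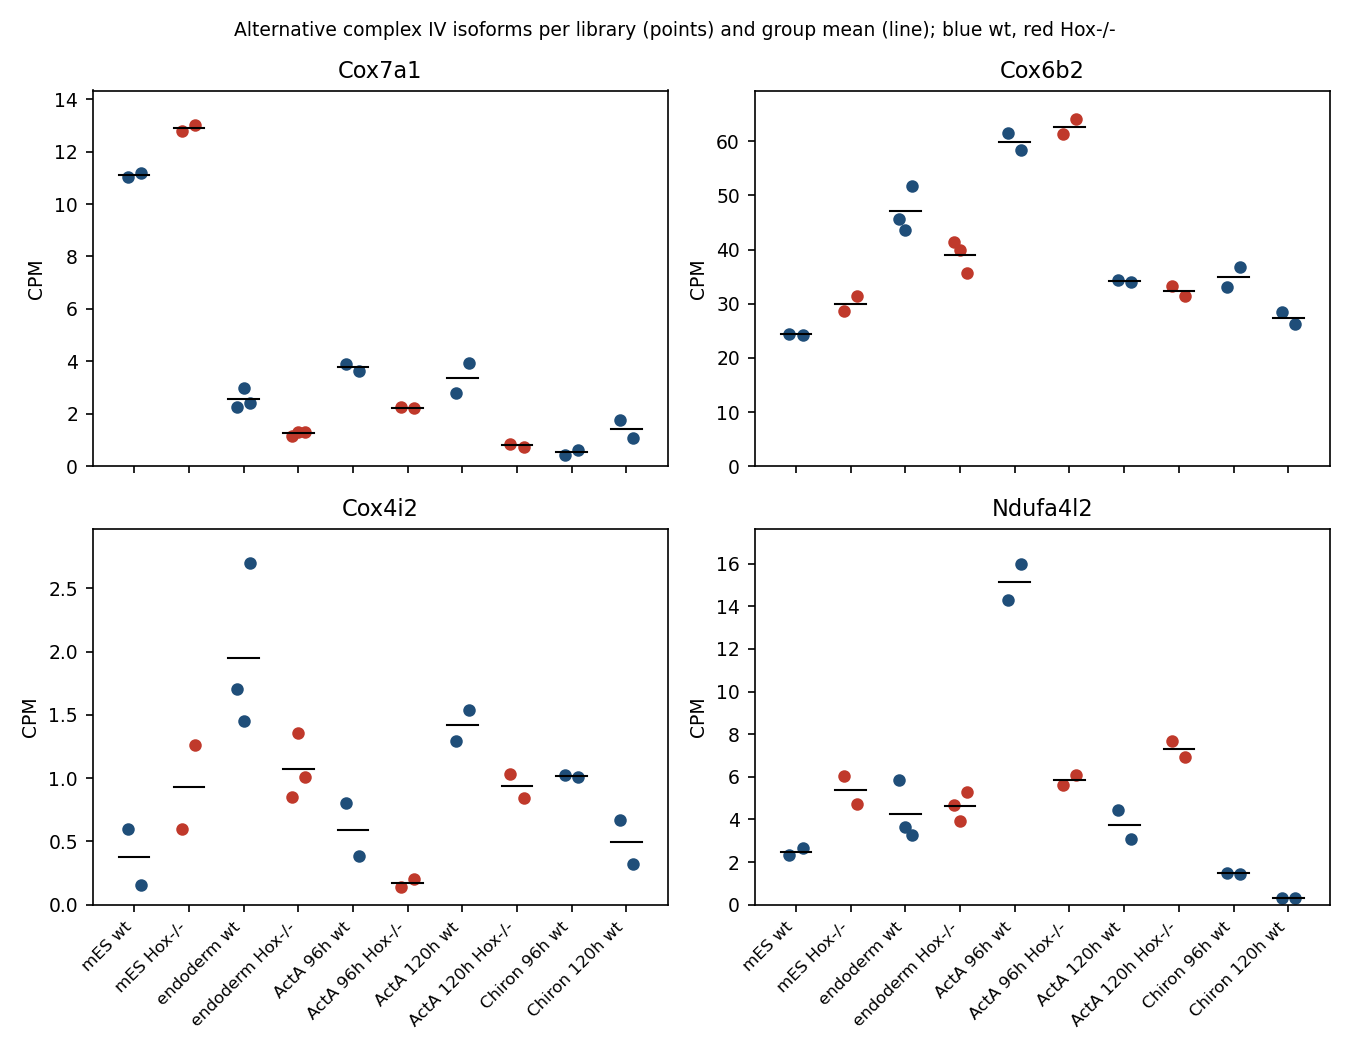
CPM of 4 alternative complex IV members in each library (points) with the group mean (line), wt blue and Hox-/- red. Cox7a1 is highest in mES cells at 11 to 13 CPM, Ndufa4l2 in ActA 96h wt at 14.3 and 16, Cox6b2 in ActA 96h gastruloids, and Cox4i2 stays below 3 CPM throughout.

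Genes around the members were counted from lists. Of 78 mitochondrial ribosome proteins, which translate the mitochondrially encoded subunits, 9 rose and 51 fell from wt mES cells to endoderm, where 41.6% and 38.3% of all genes did, with a median of -0.32. With time in ActA wt gastruloids 27 rose and 28 fell, close to the 37.2% and 37.8% of all genes, and in Chiron 35 rose and 14 fell, beside 28.5% and 33.2%. In Hox-/- against wt, 0 were higher and 26 lower in endoderm (23.1% and 23.1% of all genes), and 8 higher and 28 lower in ActA 120h gastruloids (24.9% and 25.5%). Of 13 enzymes of the tricarboxylic acid cycle, which supplies the electrons, 1 rose and 10 fell with time in ActA wt and 0 rose and 10 fell in Chiron, against the same shares of all genes as above. Of these 13, 8 were higher and 0 lower in Hox-/- than wt at ActA 120 h (median 0.21). Of 20 genes that copy and express mitochondrial DNA, 2 rose and 12 fell on differentiation in wt, beside 41.6% and 38.3% of all genes. Of the 9 mitochondrial members tested, 4 rose there, a share near that of all genes, and 1 fell. DESeq2 did not call the rises of mt-Co1, mt-Nd4 and mt-Nd5, and mt-Nd6 is uncertain. The fall of mt-Nd1 lost its call without single libraries, as given above. Of 35 other assembly factors tested, 9 rose and 16 fell on differentiation in wt. Of 12 carriers and exchangers, such as cytochrome c and the ATP-ADP exchangers, 3 rose and 7 fell there. The 7 outer membrane pore and import genes had 1 higher and 4 lower on differentiation, 0 higher and 6 lower with time in ActA wt, and 0 higher and 7 lower in Chiron. The 10 regulators of mitochondrial biogenesis summed to 1863 CPM in wt mES cells and 743.2 in wt endoderm. That list holds Esrrb, which is also among the pluripotency markers.

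Promoters of the nuclear members were read from RefSeq sequences of the GRCm38.p6 build, 300 bases each, from 250 before to 50 after the start. Of the 94 nuclear members 77 had an entry. Binding motifs of 3 factors known at such promoters were searched on both strands: CCGGAAG (the ETS core that GABP binds), AAGATGGC (YY1) and GCGCATGC (NRF1). The first stood in 19 of 77 members (24.7%) and in 9.93% of all 27025 genes. Many other ETS factors share these letters. AAGATGGC stood in 12 members (15.6%, against 3.19%) and GCGCATGC in 12 (15.6%, against 3.05%). The 27025 genes were not limited by the count minimum that members had to pass, so the shares compare counted members with all genes. None of the 3 stood in 41 members, and 7 held at least 2 kinds. The promoters of 3 members described above are shown, with matches in capitals. Cox8a (chr19:7217567-7217866, minus strand) holds the ETS letters at 2 places, both read on the opposite strand as CTTCCGG. Ndufb8 (chr19:44555393-44555692, minus) holds 1 YY1 match, after the start and near the end of the window. Ndufaf4 (chr4:24897833-24898132, plus) holds 3 NRF1 matches, 2 of which overlap because the letters read nearly alike on both strands.
Cox8a: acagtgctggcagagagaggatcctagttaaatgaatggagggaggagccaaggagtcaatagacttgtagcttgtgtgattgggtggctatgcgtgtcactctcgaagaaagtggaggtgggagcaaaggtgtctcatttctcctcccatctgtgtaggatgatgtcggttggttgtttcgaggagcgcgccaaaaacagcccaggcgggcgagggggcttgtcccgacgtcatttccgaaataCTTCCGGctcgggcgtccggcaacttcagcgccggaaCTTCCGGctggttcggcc
Ndufb8: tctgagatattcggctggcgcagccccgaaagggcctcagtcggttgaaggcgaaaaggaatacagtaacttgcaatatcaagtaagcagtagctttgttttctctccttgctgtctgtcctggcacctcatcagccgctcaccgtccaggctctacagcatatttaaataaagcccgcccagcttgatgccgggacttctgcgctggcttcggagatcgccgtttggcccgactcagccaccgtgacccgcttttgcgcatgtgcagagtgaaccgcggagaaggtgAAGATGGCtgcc
Ndufaf4: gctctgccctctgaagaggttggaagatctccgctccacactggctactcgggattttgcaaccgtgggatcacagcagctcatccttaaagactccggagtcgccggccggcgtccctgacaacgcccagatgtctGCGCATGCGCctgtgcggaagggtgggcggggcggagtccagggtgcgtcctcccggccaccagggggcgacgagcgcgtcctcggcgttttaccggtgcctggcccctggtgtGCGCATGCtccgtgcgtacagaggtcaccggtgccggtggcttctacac
These 3 differ in their letters and in their values. With time in ActA wt gastruloids Ndufb8 rose by 0.69, Ndufaf4 fell by 1.13 and Cox8a fell by 0.44. Other holders of AAGATGGC also went either way, with Uqcc2 rising by 0.52 and Ndufs4 standing at 147 and 141 CPM at 96 h and 105 and 110 at 120 h. A match describes letters in this window and shows no binding.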

How the data were processed

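Values were the authors' deposited gene tables: raw read counts and, separately, FPKM per gene and library. Per the submitters' processing notes, cutadapt 1.16, STAR 2.7.7a, Cufflinks 2.2.1 and the mm10 build were used. The program that made the counts, its use of strand and its treatment of reads with several matches are not given in the sources used here. Counts and FPKM rows were joined by gene identifier. The 4 ActA wt libraries stand in both gastruloid tables with identical counts. No column was left unmapped, and 22 libraries gave 9.11 to 28.8 M counts each.

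CPM were computed from the deposited counts. Each table was fitted over all its genes with edgeR 4.0.16 (R 4.3.3) by quasi-likelihood, with TMM scaling and Benjamini-Hochberg adjustment over all genes tested, calling an adjusted p under 0.05. mES and endoderm tables were joined for differentiation. Simulated data tested the fits: of 200 genes changed 2-fold, 99.5% were recovered for genotype in mES cells (13405 genes) and 100% for genotype in endoderm (14804) and at ActA 96 h (16044), treatment at 96 h (16506) and differentiation in wt (15511). False calls made up 4.78%, 8.26%, 2.44%, 5.66% and 4.76% of the calls, in that order. The simulated spread was fixed in advance, the same for every gene and not matched to that between these libraries. Only well-counted genes were changed. Changes under 2-fold were not simulated, so recovery of the smaller changes described above was not measured. Alternatives were total-count and RLE scaling, library sizes over nuclear genes, other count filters, DESeq2 1.42.0, limma 3.58.1 on log2 of the deposited FPKM plus 1 or 0.1, length and GC offsets, the replicate number as a block, fits of only the 2 groups compared, and each library left out. Same-numbered libraries did not deviate together (correlations of -0.083 to 0.119), so the number was not used to pair them.

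The members and lists were chosen with earlier results of these data known. Named were the mitochondrial members, in each comparison the member with the smallest p per complex and direction among those called, called members with a change of at least 1 on the log2 scale, and alternative forms of subunits. Other values of these members are printed beside them for comparison. Figures were drawn with matplotlib 3.10.9.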

Additional observations from a re-analysis of the deposited data

Results flagged for a closer look

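The genotype effect differed between 96 h and 120 h in ActA gastruloids for 56 of 105 members, 13 higher and 43 lower, by the edgeR genotype by time term, which called 18.7% of all genes higher and 20.2% lower. A positive value means that Hox-/- over wt was greater at 120 h than at 96 h. Among named nuclear members the term was 0.27 for Ndufa10, -0.59 for Ndufa7, 0.37 for Sdha and -0.38 for Sdhd. In complex III it was 0.23 for Uqcrc1 and -0.52 for Uqcrq. In complex IV it was 2.40 for Ndufa4l2, -0.35 for Cox4i1 and -1.24 for Cox7a1, and the Cox7a1 call was lost without ActA 120h wt replicate 2 (-0.98) or Hox-/- replicate 1 (-1.34) or 2 (-1.14). In complex V it was 0.27 for Atp5a1 and -0.71 for Atp5e, and for the assembly factor Uqcc2 it was -0.36.

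For 14 of 102 members the genotype effect was not the same in endoderm as in mES cells, 4 higher and 10 lower, by the edgeR genotype by differentiation term, which called 11.6% of all genes higher and 12.5% lower, so the members' share was not above the background. A positive value means that Hox-/- over wt was greater in endoderm. The term was 0.46 for Ndufa5, -0.40 for Ndufa6, -0.23 for Uqcrc2, 0.21 for Cox7a2, -1.22 for Cox7a1, 0.34 for Atp5k, -0.46 for Ndufaf6 and -2.03 for Cox4i2. Cox4i2 held 2 to 37 counts in these libraries. The calls of Cox7a1 and Ndufa5 held when each library was left out in turn, and each of the other 6 was lost when at least 1 library was left out.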

How the results depend on the processing

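Of 227 named results for single members, 125 kept their direction and call under every alternative. Calls were lost most often with limma on log2(FPKM + 1) (65 results), log2(FPKM + 0.1) (51) and DESeq2 (44), and 53 lost theirs when some library was left out. Of 237 alternative counts of members called, 213 lay within 1.5 times the reported count. DESeq2 called 8 members for genotype in mES cells, 26 for genotype at ActA 96 h and 8 for genotype by differentiation. With limma on log2(FPKM + 1) the mES count was 0 (edgeR had 31 of 100 members at an unadjusted p under 0.05 there and called 20), and with log2(FPKM + 0.1) it was 1. The ActA 96 h genotype count was 8 or 9 with these limma fits, genotype by time 29 or 33, treatment at 96 h 40 and treatment at 120 h 21 with log2(FPKM + 1). The FPKM fits were not made across the mES and endoderm tables.

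Of 62 alternative ratios of summed levels, 43 lay within 1 SD. With TMM-adjusted library sizes the nuclear log2 ratio was 0.12 for genotype at ActA 96 h, 0.00 at ActA 120 h, -0.36 for time in ActA wt, -0.48 in ActA Hox-/- and -0.14 in Chiron. It was -0.07 for treatment at 120 h, -0.44 for differentiation in wt and -0.49 in Hox-/-. The mitochondrial ratio was 0.21 for genotype at ActA 120 h, -0.71 for time in ActA wt and 0.20 for differentiation in wt. From the deposited FPKM the nuclear ratio was 0.02 for genotype at ActA 96 h, -0.14 at ActA 120 h, -0.16 for time in ActA wt and -0.33 in ActA Hox-/-. For time in Chiron it was 0.04 in place of -0.03 from CPM, so the sign turned. For treatment at 120 h it was 0.00 in place of -0.02. The mitochondrial ratio was 0.17 for genotype at ActA 120 h and -0.76 for time in ActA wt. The cause was not tested.

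Named members that turned were Ndufaf4 for genotype in endoderm (-0.05 in both limma fits) and treatment at 120 h (0.02 in both), and, with length and GC offsets, Atp5d (-0.07) and mt-Nd1 (0.03) for differentiation in wt. With a library left out, mt-Nd6 for genotype at ActA 96 h ran from -1.74 to 0.32 and mt-Nd5 for time in ActA Hox-/- from -0.04 to 0.35. Counts of members called then ran from 7 to 33 for genotype in mES cells, 34 to 52 at ActA 96 h, 24 to 43 for treatment at 120 h and 5 to 16 for genotype by differentiation. With the replicate number as a block the counts were 25 for genotype in mES cells, 34 in endoderm, 56 and 50 in ActA at 96 h and 120 h, 91 and 99 for time in ActA wt and Hox-/-, and 16 for genotype by differentiation. The numbers did not pair the libraries.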
